A study of Mus musculus with 18 samples.

Results

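The genes described here are 10 mouse genes of cytosolic nucleic acid sensing: the RNA helicases *Rigi*, *Ifih1* and *Dhx58*, their adaptor *Mavs*, the DNA sensor *Cgas*, its adaptor *Sting1*, the sensors *Zbp1* and *Eif2ak2*, and the enzymes *Trex1* and *Samhd1* that remove nucleic acid or its building blocks. They were chosen by name, as rows of the deposited table whose gene symbol or older synonym matched a fixed list. All 10 were found, each in a single row, among 62197 genes in the table, and *Rigi* is listed there under its older symbol *Ddx58*. Bulk RNA-seq was done on mouse bone marrow-derived dendritic cells (DCs), grown for 10 days with supernatant of J558 cells that contains granulocyte-macrophage colony-stimulating factor. The study asked how the squeezing of DCs between surfaces changes their gene expression and whether cytosolic phospholipase A2 (cPLA_2_, encoded by *Pla2g4a*) is needed for this. There were 6 conditions with 3 libraries each. Nonconfined cPLA_2_ WT and nonconfined cPLA_2_ KO DCs were collected at the end of the culture. Confined cPLA_2_ WT and confined cPLA_2_ KO DCs were kept at a height of 3 µm and collected, by the labels, 4 h after confinement. DCs labelled cPLA_2_ WT or cPLA_2_ KO were given 100 ng ml-1 lipopolysaccharide (LPS) for 30 min by the labels, washed and collected the next day. The cPLA_2_ KO mice carried floxed *Pla2g4a* deleted by Cre under the *Itgax* (CD11c) promoter, so that the deletion is expected only in cells in which this promoter is active. The study used male and female mice, and the labels give neither age nor sex for these libraries. Time in culture differed between nonconfined, confined and LPS-treated cells, so treatment and time of collection cannot be told apart.

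RNA and DNA are not normally found free in the cytosol of a healthy cell in forms that these proteins recognize, and their appearance there marks infection or damage. RIG-I (*Rigi*) and MDA5 (*Ifih1*) bind double-stranded RNA and pass the signal through MAVS on mitochondria, whereas cGAS (*Cgas*) binds DNA and makes the messenger cGAMP, which activates STING on the endoplasmic reticulum. Both routes activate the kinases TBK1 and IKKε and interferon regulatory factors and lead to type I interferon, and many of the sensors are themselves interferon-stimulated genes in DCs.

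The table gives normalized counts, that is, gene counts divided by the size factor of the library and not corrected for the length of genes. All values were whole multiples of the value of 1 read (100% of values within a tolerance of 0.001 reads), so the depth could be recovered. It ranged from 33027230 to 61300021 reads on genes, with a median of 40950397 over the 18 libraries. No pair of libraries agreed within sampling noise, as the median chi-square of a pair over genes was at least 2.78 times that of counting error. Each library was therefore used as 1 replicate, although this does not show separate cultures. After LPS, replicates 3 of both labels (3.15) and cPLA_2_ WT replicate 2 with cPLA_2_ KO replicate 1 (3.28) were closer than any pair within a label (4.12 to 9.40). The other LPS pairs across labels ranged from 4.37 to 8.91. Nothing in the labels says that the libraries of a condition came from separate mice, although the study calls them biological replicates, and the p-values measure the spread between these libraries.

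The targeted gene and genes of the Y chromosome were read before any comparison. *Pla2g4a* stood at 697, 686 and 770.4 normalized counts in nonconfined cPLA_2_ WT libraries and at 548, 542 and 533 in nonconfined cPLA_2_ KO libraries. In confined cells the *Pla2g4a* values were 1369, 1430.3 and 1321 for cPLA_2_ WT and 923, 871 and 919.5 for cPLA_2_ KO. Every cPLA_2_ KO library lay below every cPLA_2_ WT library in both settings, although much of the transcript was still counted. After LPS, *Pla2g4a* read 1005, 969 and 967 in libraries labelled cPLA_2_ WT and 1065, 1032 and 1028 in libraries labelled cPLA_2_ KO, so that the libraries labelled cPLA_2_ KO were not lower. The Y-linked *Ddx3y* stood between 874 and 1036 in the 6 nonconfined and confined cPLA_2_ KO libraries and between 0 and 3.05 in the 6 cPLA_2_ WT libraries. After LPS, it read 1271, 0 and 662 in libraries labelled cPLA_2_ WT and 2.12, 1476 and 783 in libraries labelled cPLA_2_ KO. *Eif2s3y*, *Kdm5d* and *Uty* were likewise under 4 normalized counts in nonconfined and confined cPLA_2_ WT libraries and above 80 in the cPLA_2_ KO ones, and *Xist* was counted in all 18 libraries. *Xist* read 27953, 33681 and 30681 in nonconfined cPLA_2_ WT and 12153, 19081 and 14328 in nonconfined cPLA_2_ KO libraries, without overlap, and was called lower in the latter (-1.04, adjusted p = 0.0011). Its values overlapped between confined cPLA_2_ WT (22734, 33482 and 29759) and confined cPLA_2_ KO libraries (16979.6, 24835 and 20600), where it was not called (-0.46, adjusted p = 0.051) but passed under 6 alternatives, among them leaving out confined cPLA_2_ WT replicate 1 (-0.62, adjusted p = 0.018) or confined cPLA_2_ KO replicate 2 (-0.60, adjusted p = 0.025). With confinement of cPLA_2_ KO cells, *Xist* was called higher (0.46, adjusted p = 0.044). That call was lost, among others, with no filter on low values (adjusted p = 0.08) and without nonconfined cPLA_2_ KO replicate 1 (0.31, adjusted p = 0.22). After LPS the *Xist* values were 26298, 27791 and 27224 under the cPLA_2_ WT label and 30960.2, 16450.2 and 21654 under the cPLA_2_ KO label. By *Pla2g4a*, the LPS-treated libraries thus do not show the difference that their genotype labels would bring. By *Ddx3y*, replicates 1 and 3 of the cPLA_2_ WT label and replicate 1 of the cPLA_2_ KO label go against the pattern of the nonconfined and confined cells. The remaining LPS-treated libraries lie on the side of their label. The LPS values of 662, 783, 1271 and 1476 were all outside the range of 874 to 1036 of the nonconfined and confined cPLA_2_ KO libraries. The genotype labels of the LPS-treated libraries are therefore in doubt. These libraries are called here by their labels and averaged over both labels where LPS is compared with other treatments. Among nonconfined and confined cells, genotype cannot be told apart from other differences between the mice, including sex.

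**Figure D1:**
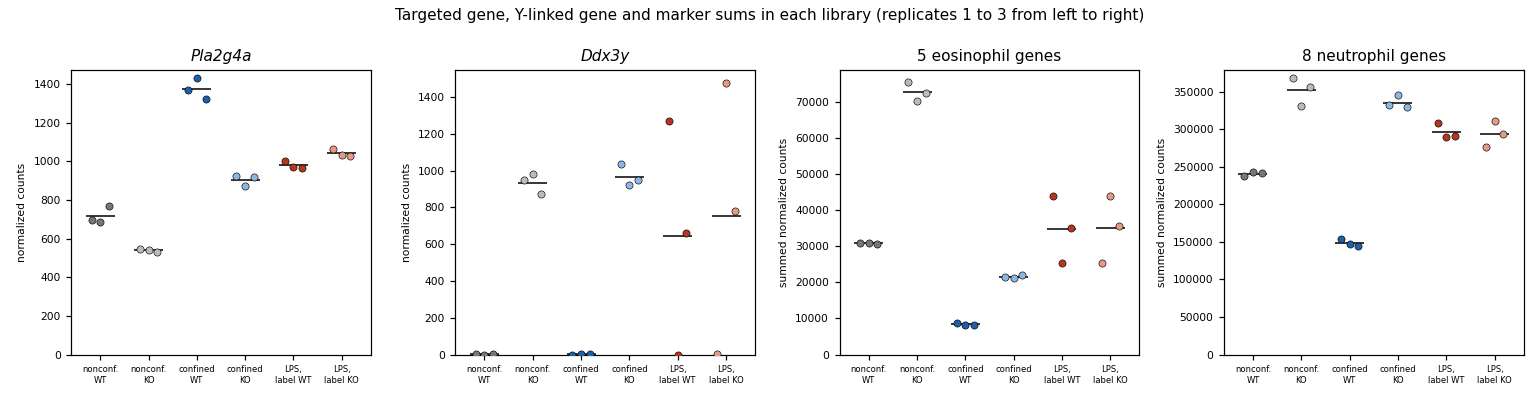
Normalized counts of the targeted gene *Pla2g4a* and the Y-linked gene *Ddx3y*, and summed normalized counts of 5 eosinophil and 8 neutrophil genes, on linear axes that start at 0. Points are libraries (replicates 1 to 3 from left to right in each condition) and bars are means of 3; within LPS, *Ddx3y* is at or near 0 in 1 library of each genotype label.

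The cells carried DC genes. *Cd74* and *H2-Ab1* of antigen presentation and *Itgax* were counted in every library, and the 6 DC genes of the list summed to 346331, 321580 and 327539 in nonconfined cPLA_2_ WT and 296634, 275855 and 284815 in confined cPLA_2_ WT libraries. *Cd74* was the most abundant of them, none was at 0 in all libraries, and 6 of 6 fell with confinement in each genotype, although *H2-Ab1* did not pass in cPLA_2_ WT cells without nonconfined replicate 1 (-0.20, adjusted p = 0.071) or confined replicate 2 (-0.20, adjusted p = 0.074). Of all genes tested, 28.2% rose and 28.4% fell with confinement in cPLA_2_ WT cells, and 22.8% rose and 23.4% fell in cPLA_2_ KO cells. The DC sums were 403702, 378664 and 393927 in nonconfined and 282705, 268524 and 281476 in confined cPLA_2_ KO libraries, and 468776, 398539 and 427973 and 404011, 461275 and 440226 in LPS-treated libraries labelled cPLA_2_ WT and cPLA_2_ KO. By the study's methods, DCs were set apart by adhesion from 2 other products of this culture. Macrophages were left on the plate and granulocytes, for lack of attachment, were removed. Genes of granulocytes, macrophages and other cells were counted in the libraries. The 8 neutrophil genes, led by *S100a9*, summed to 238310, 243331 and 241648 in nonconfined and 153813, 146639 and 144348 in confined cPLA_2_ WT libraries. The neutrophil sums in cPLA_2_ KO libraries were 368425, 331245 and 356430 without and 332291, 345266 and 329250 with confinement. The sums did not overlap between confined and nonconfined cPLA_2_ WT libraries but did between those of cPLA_2_ KO, with 8 of 8 genes called lower in cPLA_2_ WT and 4 of 8 in cPLA_2_ KO, of which *Retnlg* did not pass without nonconfined replicate 1 (-0.64, adjusted p = 0.092) or confined replicate 1 (-0.72, adjusted p = 0.053) or 2 (-0.67, adjusted p = 0.072). The 5 eosinophil genes, led by *Prg2*, summed to 31049, 30835 and 30754 in nonconfined cPLA_2_ WT, 8728, 8189 and 8107 in confined cPLA_2_ WT, 75606, 70386 and 72492 in nonconfined cPLA_2_ KO and 21585, 21199.8 and 22012 in confined cPLA_2_ KO libraries. After LPS the eosinophil sums were 43838, 25501 and 35101 under the cPLA_2_ WT label and 25438, 43869 and 35699 under the cPLA_2_ KO label. In these 6 libraries, the highest 2 values of *Ddx3y* and of the eosinophil sum fell in replicate 1 of the cPLA_2_ WT label and replicate 2 of the cPLA_2_ KO label, and the lowest 2 of both in replicate 2 of the cPLA_2_ WT label and replicate 1 of the cPLA_2_ KO label. Neutrophil sums after LPS were 308000, 289630 and 291540 under the cPLA_2_ WT label and 276290, 311559 and 293721 under the cPLA_2_ KO label.

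Sums of further lists were also read. The 7 macrophage genes, led by *Adgre1*, summed to 15049.9, 14842 and 15162 in nonconfined cPLA_2_ WT, 13031, 12343 and 12417 in confined cPLA_2_ WT, 16503, 17452 and 17088 in nonconfined cPLA_2_ KO and 11757, 10791 and 11508 in confined cPLA_2_ KO libraries. The 6 mast cell and basophil genes, led by *Cpa3*, summed to 5118, 5375 and 5250.5 in nonconfined cPLA_2_ WT and 1989, 1858 and 1872 in confined cPLA_2_ WT libraries, and to 8428, 7873 and 7919 and 3404, 3302 and 3463 in cPLA_2_ KO. After LPS the macrophage sums, 23033, 18107 and 20480.2 under the cPLA_2_ WT label and 18076, 22214 and 20643 under the cPLA_2_ KO label, lay above those of every nonconfined and confined library. The mast cell and basophil sums were then 4997, 4922 and 4935 and 4874, 5221 and 5294. The plasmacytoid DC list was higher in confined cPLA_2_ WT and LPS-treated libraries, as were many of the sensing genes, at 367, 375 and 327 in nonconfined cPLA_2_ WT, 827, 843 and 842 in confined cPLA_2_ WT, 309, 318 and 319 in nonconfined cPLA_2_ KO and 315, 315 and 322 in confined cPLA_2_ KO libraries. After LPS its sums were 1621, 2274 and 1968 under the cPLA_2_ WT label and 2111, 1537 and 1814 under the cPLA_2_ KO label. Most of this was *Tcf4*, at 332, 318 and 275 in nonconfined and 795, 806 and 795 in confined cPLA_2_ WT libraries, whereas the defining gene *Siglech* read 4.57, 3.41 and 15.7 and 1.93, 0 and 7.11 there. Of the 5 genes of this list tested, 1 (*Tcf4*) was called higher with confinement in cPLA_2_ WT cells, a share of 20% beside 28.2% of all genes. T and NK cell genes, led by *Cd3d*, summed to at most 196 in any library, and *Mcpt4* and *Ncr1* were at or near 0. The part of these cells in the results on the sensing genes was not tested. In bulk samples, fewer cells of a type and less RNA per cell cannot be told apart.

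With confinement, 8 of the 10 sensing genes rose in cPLA_2_ WT cells and fell in cPLA_2_ KO cells. In cPLA_2_ WT cells, 8 of 10 rose and 1 (*Sting1*) fell with confinement at an adjusted p under 0.05 in limma, beside 28.2% and 28.4% of the 17875 genes tested that rose and fell. *Mavs* was not called. With an absolute log2 fold change above 1 as well, 4 members were called (*Rigi*, *Ifih1*, *Trex1* and *Eif2ak2*), beside 19% of all genes. The median log2 fold change was 0.59 over the members and -0.0055 over all genes tested. Among cPLA_2_ KO cells, 0 members rose and 9 fell, beside 22.8% and 23.4% of all genes, and *Mavs* was again not called. Past a log2 fold change of 1 were 3 (*Rigi*, *Dhx58* and *Trex1*), beside 12% of all genes in either direction. The median was -0.81 over the members and 0.01 over all genes. The difference between the 2 changes (the change in cPLA_2_ KO minus that in cPLA_2_ WT) was below 0 and past the test for 8 members and above 0 for 0, beside 15.6% and 10.2% of all genes. Of these 8 members, 6 differed by more than 1, beside 7.67% of all genes in either direction. The median difference was -1.64 over the members and 0.051 over all genes. *Sting1* and *Mavs* did not pass this test.

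The RIG-I-like receptor genes rose with confinement in cPLA_2_ WT cells and fell in cPLA_2_ KO cells. *Ifih1* stood at 1914, 1926 and 2020.4 normalized counts in the nonconfined cPLA_2_ WT libraries and at 8103, 8465 and 7715 in the confined cPLA_2_ WT libraries. *Ifih1* in cPLA_2_ KO libraries was at 1773, 1894 and 1900.2 without confinement and at 1107, 1065 and 951 with it. After LPS, *Ifih1* read 18933, 19904 and 19097 in libraries labelled cPLA_2_ WT and 19315, 18951 and 18341 in libraries labelled cPLA_2_ KO. Confined cPLA_2_ WT libraries were above and confined cPLA_2_ KO libraries below all nonconfined libraries, LPS-treated libraries were the highest, and no 2 of these sets overlapped. *Ifih1*, which encodes MDA5, a sensor of long double-stranded RNA, thus rose 4.14-fold in cPLA_2_ WT cells (log2 fold change 2.05 ± 0.053 (SE), adjusted p = 3.3e-18) and fell 1.78-fold in cPLA_2_ KO cells (log2 fold change -0.84 ± 0.053 (SE), adjusted p = 3.9e-11). The difference between the changes was -2.89 ± 0.075 (SE, adjusted p = 1.2e-17), the largest in size among the 10 members.

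*Rigi* stood at 2721, 2800.3 and 2756 normalized counts in the nonconfined cPLA_2_ WT libraries and at 5706, 5822 and 5864 in the confined cPLA_2_ WT libraries. *Rigi* in cPLA_2_ KO libraries was at 2502, 2816 and 2806 without confinement and at 1299, 1162 and 1228 with it. After LPS, *Rigi* read 12918, 12751 and 12804 in libraries labelled cPLA_2_ WT and 12543, 12415 and 12581 in libraries labelled cPLA_2_ KO. Again confined cPLA_2_ KO libraries were the lowest, followed by nonconfined, confined cPLA_2_ WT and LPS-treated libraries, without overlap between these sets. *Rigi* encodes RIG-I, which recognizes short RNA with a 5′ triphosphate, and it rose 2.1-fold in cPLA_2_ WT cells (log2 fold change 1.07 ± 0.048 (SE), adjusted p = 3.5e-14) and fell 2.2-fold in cPLA_2_ KO cells (log2 fold change -1.14 ± 0.048 (SE), adjusted p = 4.9e-14).

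*Dhx58* stood at 3063, 2770.5 and 2914 normalized counts in the nonconfined cPLA_2_ WT libraries and at 4859.5, 4350.1 and 4586 in the confined cPLA_2_ WT libraries. *Dhx58* in cPLA_2_ KO libraries was at 2811, 2880.2 and 2993 without confinement and at 905, 971 and 847 with it. After LPS, *Dhx58* read 13727, 14294 and 13464 in libraries labelled cPLA_2_ WT and 13927, 13579 and 13771 in libraries labelled cPLA_2_ KO. Confined cPLA_2_ WT libraries were above and confined cPLA_2_ KO libraries below all nonconfined libraries, without overlap. *Dhx58* encodes LGP2, a helicase without signalling domains that modulates MDA5 and RIG-I, and it changed 1.58-fold upward in cPLA_2_ WT cells (log2 fold change 0.66 ± 0.054 (SE), adjusted p = 9.3e-10) and 3.19-fold downward in cPLA_2_ KO cells (log2 fold change -1.67 ± 0.054 (SE), adjusted p = 7.5e-16). For *Rigi* and *Dhx58*, the changes in the 2 genotypes differed by -2.21 ± 0.068 and -2.33 ± 0.076 on the log2 scale (SE, adjusted p = 1.8e-16 and 5.5e-16 in limma).

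The adaptor of these helicases did not follow them. *Mavs* stood at 805, 719.7 and 779 normalized counts in the nonconfined cPLA_2_ WT libraries and at 775, 682 and 810.2 in the confined cPLA_2_ WT libraries. *Mavs* in cPLA_2_ KO libraries was at 693, 765 and 720.1 without confinement and at 630.2, 639 and 672 with it. After LPS, *Mavs* read 360.2, 513 and 382 in libraries labelled cPLA_2_ WT and 484, 364 and 399.7 in libraries labelled cPLA_2_ KO. Confined and nonconfined cPLA_2_ WT libraries overlapped, confined cPLA_2_ KO libraries were slightly below the nonconfined ones, and all 6 LPS-treated libraries were below all others. *Mavs* had a log2 fold change of -0.03 with confinement in cPLA_2_ WT cells (95% interval -0.26 to 0.21, adjusted p = 0.87) and of -0.17 in cPLA_2_ KO cells (95% interval -0.40 to 0.07, adjusted p = 0.25), and the difference between them was not past the test (-0.14, adjusted p = 0.59).

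On the DNA-sensing side, the sensor and its adaptor behaved differently. *Cgas* stood at 327, 411 and 284 normalized counts in the nonconfined cPLA_2_ WT libraries and at 465, 430.5 and 383 in the confined cPLA_2_ WT libraries. *Cgas* in cPLA_2_ KO libraries was at 262, 283 and 236 without confinement and at 172, 173 and 164 with it. After LPS, *Cgas* read 467, 505 and 465 in libraries labelled cPLA_2_ WT and 440.2, 473 and 481 in libraries labelled cPLA_2_ KO. Confined cPLA_2_ KO libraries were the lowest and did not overlap with any other, whereas confined and nonconfined cPLA_2_ WT libraries overlapped. *Cgas*, which encodes the enzyme that makes cGAMP, had a log2 fold change of 0.33 ± 0.11 in cPLA_2_ WT cells (SE, adjusted p = 0.017) and of -0.61 ± 0.11 in cPLA_2_ KO cells (adjusted p = 0.00017), with a difference of -0.95 ± 0.16 (adjusted p = 0.00013). The call in cPLA_2_ WT cells was lost when libraries were scaled to the same total (0.11, adjusted p = 0.43) and without nonconfined cPLA_2_ WT replicate 1 (0.31), nonconfined cPLA_2_ WT replicate 3 (0.21) or confined cPLA_2_ WT replicate 1 (0.27). A neighbouring row without a symbol overlaps the *Cgas* row and was counted at 520.4, 563 and 479.6 in nonconfined cPLA_2_ WT, 659, 688 and 692 in confined cPLA_2_ WT, 503, 546 and 496 in nonconfined cPLA_2_ KO and 288, 292 and 259.7 in confined cPLA_2_ KO libraries, so how reads were shared between the 2 rows is uncertain.

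*Sting1* stood at 3295, 3305 and 3197 normalized counts in the nonconfined cPLA_2_ WT libraries and at 2029, 1841 and 1973 in the confined cPLA_2_ WT libraries. *Sting1* in cPLA_2_ KO libraries was at 2952, 2891 and 2896 without confinement and at 1949, 1822 and 1889 with it. After LPS, *Sting1* read 2504, 2297 and 2292 in libraries labelled cPLA_2_ WT and 2150.1, 2587 and 2432 in libraries labelled cPLA_2_ KO. Every confined library was below every nonconfined and every LPS-treated library. *Sting1*, the receptor for cGAMP, fell 1.68-fold with confinement in cPLA_2_ WT cells (log2 fold change -0.75 ± 0.06 (SE), adjusted p = 6.8e-10) and 1.54-fold in cPLA_2_ KO cells (log2 fold change -0.63 ± 0.06 (SE), adjusted p = 2.3e-08). The 2 decreases did not differ past the test (0.12 ± 0.085 SE, adjusted p = 0.34), except when libraries were scaled to the same total (0.31, adjusted p = 0.0023).

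The other sensors again parted the genotypes. *Zbp1* stood at 2549, 2532 and 2591 normalized counts in the nonconfined cPLA_2_ WT libraries and at 3658, 3601 and 3774 in the confined cPLA_2_ WT libraries. *Zbp1* in cPLA_2_ KO libraries was at 2514, 2444 and 2398 without confinement and at 1292, 1245 and 1213 with it. After LPS, *Zbp1* read 14157, 15734 and 15243 in libraries labelled cPLA_2_ WT and 16390.2, 14841 and 15106 in libraries labelled cPLA_2_ KO. The 3 levels of confined cPLA_2_ KO, nonconfined and confined cPLA_2_ WT cells were separate, and LPS-treated libraries were far above them. *Zbp1*, a sensor of left-handed nucleic acid that can start cell death through RIPK3, rose 1.44-fold in cPLA_2_ WT cells (log2 fold change 0.52 ± 0.048 (SE), adjusted p = 5.3e-09) and fell 1.96-fold in cPLA_2_ KO cells (log2 fold change -0.97 ± 0.048 (SE), adjusted p = 6.2e-13).

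*Eif2ak2* stood at 802, 858 and 858 normalized counts in the nonconfined cPLA_2_ WT libraries and at 1712, 1691 and 1644 in the confined cPLA_2_ WT libraries. *Eif2ak2* in cPLA_2_ KO libraries was at 624, 805 and 720.1 without confinement and at 414, 409 and 417 with it. After LPS, *Eif2ak2* read 3043, 3059 and 3185 in libraries labelled cPLA_2_ WT and 3139, 3012 and 3057 in libraries labelled cPLA_2_ KO. Confined cPLA_2_ KO libraries were within a few counts of each other and below every other library. *Eif2ak2* encodes PKR, a kinase that binds double-stranded RNA and phosphorylates eIF2α to halt translation, and its log2 fold change was 1.00 ± 0.068 in cPLA_2_ WT (SE, adjusted p = 4.5e-11) and -0.78 ± 0.068 in cPLA_2_ KO cells (adjusted p = 5.5e-09). A row without a symbol overlaps that of *Eif2ak2* and was counted at 110.5, 130.5 and 97.3 in nonconfined cPLA_2_ WT, 147, 128 and 137 in confined cPLA_2_ WT, 117, 107 and 94.1 in nonconfined cPLA_2_ KO and 63.7, 59.7 and 55.6 in confined cPLA_2_ KO libraries, so some reads of this locus could be shared. The changes in the 2 genotypes differed by -1.50 for *Zbp1* (adjusted p = 1.5e-13) and by -1.79 for *Eif2ak2* (adjusted p = 3.1e-12).

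The enzymes that limit the nucleic acid available to the sensors moved with the sensors. *Trex1* stood at 3464, 3055 and 3380.4 normalized counts in the nonconfined cPLA_2_ WT libraries and at 8755, 8388 and 8748 in the confined cPLA_2_ WT libraries. *Trex1* in cPLA_2_ KO libraries was at 3428, 3138 and 3167 without confinement and at 1575, 1435 and 1701 with it. After LPS, *Trex1* read 16358, 13267 and 14685 in libraries labelled cPLA_2_ WT and 14290, 15851 and 15057 in libraries labelled cPLA_2_ KO. Confined cPLA_2_ KO libraries were the lowest, followed by nonconfined, confined cPLA_2_ WT and LPS-treated libraries, without overlap between these sets. *Trex1*, the main cytosolic DNA exonuclease, rose 2.62-fold in cPLA_2_ WT cells (log2 fold change 1.39 ± 0.071 (SE), adjusted p = 3.3e-13) and fell 2.07-fold in cPLA_2_ KO cells (log2 fold change -1.05 ± 0.071 (SE), adjusted p = 9.8e-11), with a difference of -2.44 (adjusted p = 2.8e-14). The row overlaps that of *Shisa5*, which lies on the opposite strand in the annotation and had 12366, 11585 and 12122 normalized counts in nonconfined cPLA_2_ WT, 16122, 14990 and 15885 in confined cPLA_2_ WT, 11626, 11063 and 11345 in nonconfined cPLA_2_ KO and 14107, 12874 and 13668 in confined cPLA_2_ KO libraries. After LPS, *Shisa5* read 19853, 20662 and 20602 under the cPLA_2_ WT label and 21749, 20940 and 21249 under the cPLA_2_ KO label. *Shisa5* was thus higher in confined cPLA_2_ WT and LPS-treated libraries, as *Trex1* was, and higher in confined than in nonconfined cPLA_2_ KO libraries, where *Trex1* was lower. The annotated *Trex1* also overlaps *Atrip* on its own strand, so the share of reads assigned to *Trex1* is uncertain.

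*Samhd1* stood at 7007, 6911 and 6923 normalized counts in the nonconfined cPLA_2_ WT libraries and at 8749.9, 8802 and 8732 in the confined cPLA_2_ WT libraries. *Samhd1* in cPLA_2_ KO libraries was at 6863, 7582 and 7282 without confinement and at 5854, 5050.2 and 5392 with it. After LPS, *Samhd1* read 16299, 18851 and 17141 in libraries labelled cPLA_2_ WT and 18446, 16372 and 16943 in libraries labelled cPLA_2_ KO. Confined cPLA_2_ WT libraries were above and confined cPLA_2_ KO libraries below the nonconfined libraries, by less than for *Trex1*. *Samhd1*, which breaks down deoxynucleotides, had a log2 fold change of 0.33 ± 0.058 in cPLA_2_ WT (SE, adjusted p = 4.3e-05) and -0.42 ± 0.058 in cPLA_2_ KO cells (adjusted p = 4.9e-06), and the difference between them was -0.75 (adjusted p = 3.3e-07). With the same total per library the increase in cPLA_2_ WT cells was not called (0.11, adjusted p = 0.14).

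**Figure D2:**
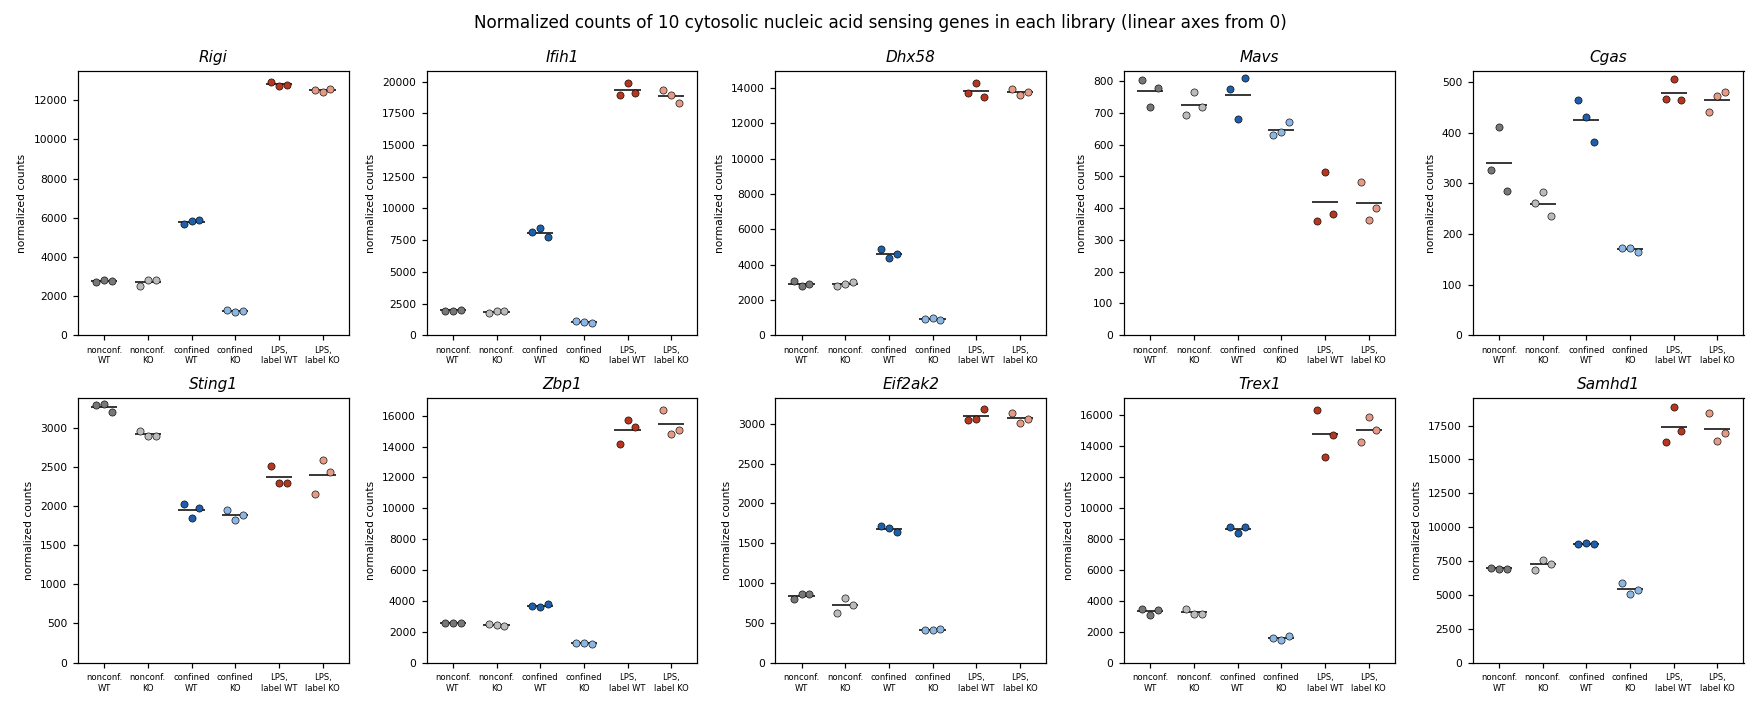
Normalized counts of the 10 genes in each of 18 libraries, on linear axes that start at 0 (points, libraries; bars, means of 3). For *Ifih1*, confined cPLA_2_ WT libraries sit between 7715 and 8465 and confined cPLA_2_ KO libraries between 951 and 1107.

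Direct comparison of the genotypes asked at which treatment they parted. In confined cells, 8 of 10 members were lower in cPLA_2_ KO than in cPLA_2_ WT and 0 higher, beside 20.6% and 18.8% of all genes. By more than 1 on the log2 scale, 7 members were lower, beside 10.1% of all genes that differed by that much in either direction. The range ran from -0.69 for *Samhd1* (adjusted p = 3e-09) to -2.96 for *Ifih1* (adjusted p = 8.2e-21), with a median of -1.79 over the members and 0.041 over all genes. *Sting1* (-0.05, adjusted p = 0.6) and *Mavs* (-0.22, adjusted p = 0.14) were not called, the latter passing in a fit of the confined libraries alone (-0.22, adjusted p = 0.028). In nonconfined cells, 2 members were called lower and 0 higher in cPLA_2_ KO, beside 4.11% and 4.78% of all genes, with a median of -0.07 over the members and -0.0016 over all genes. The genes called were *Cgas* (log2 fold change -0.37 ± 0.11 (SE), adjusted p = 0.045) and *Eif2ak2* (log2 fold change -0.23 ± 0.068 (SE), adjusted p = 0.035), none past a log2 fold change of 1, beside 1.15% of all genes, and both calls were lost with no filter on low values and in a fit of the nonconfined libraries alone. *Cgas* was not past the test without cPLA_2_ WT replicate 1 (-0.40, adjusted p = 0.087) or 2 (-0.23, adjusted p = 0.27) or cPLA_2_ KO replicate 1 (-0.38, adjusted p = 0.12) or 3 (-0.31, adjusted p = 0.19). The *Eif2ak2* call was lost without cPLA_2_ WT replicate 2 (-0.22, adjusted p = 0.12) or 3 (-0.22, adjusted p = 0.12) or cPLA_2_ KO replicate 1 (-0.14, adjusted p = 0.23) or 3 (-0.24, adjusted p = 0.084). *Sting1* was not called (-0.16, adjusted p = 0.096) but passed the test in that separate fit (-0.16, adjusted p = 0.031), with DESeq2 (-0.17, adjusted p = 0.048) and with the same total per library (-0.20, adjusted p = 0.019). Genes of other cells also differed in level between the genotypes. In confined cPLA_2_ KO cells, 8 of 8 neutrophil genes, 4 of 5 eosinophil genes, 3 of 5 tested mast cell and basophil genes and 2 of 6 tested macrophage genes were called higher than in confined cPLA_2_ WT cells. Called lower there were *Siglecf* of the eosinophil, *Fcgr1* of the macrophage, *Zbtb46* of the DC and *Tcf4* of the plasmacytoid DC list. Of these calls, that of *Siglecf* was lost with the same total per library (-0.24, adjusted p = 0.072), that of the macrophage gene *C1qa* without confined cPLA_2_ WT replicate 1 or 2 or confined cPLA_2_ KO replicate 1 or 3 (0.53, 0.54, 0.54 and 0.55), and that of *Zbtb46* under 9 alternatives, among them leaving out confined cPLA_2_ WT replicate 2 or 3 or confined cPLA_2_ KO replicate 1 or 3 (-0.17, -0.17, -0.14 and -0.18). Of the neutrophil genes, 6 of 8 were called higher and 0 lower in nonconfined cPLA_2_ KO cells. Of the 5 eosinophil genes, 4 were called higher and 1 lower, namely *Siglecf*, which encodes a surface receptor of eosinophils and read 1426, 1346 and 1435 in nonconfined cPLA_2_ WT and 931, 990.5 and 907 in nonconfined cPLA_2_ KO libraries. In nonconfined cPLA_2_ KO cells, 2 of 5 mast cell and basophil genes were called higher, as were 3 of 6 macrophage genes (*C1qa*, *C1qb*, *C1qc*) and *H2-Ab1* and *Cd74* of the DC list, whereas *Itgax* was called lower. Without cPLA_2_ KO replicate 1 neither *C1qa* (0.70), *C1qc* (0.38) nor *Cd74* (0.16) passed, and *C1qc* and *Cd74* also did not without cPLA_2_ WT replicate 2 (0.32 and 0.16), cPLA_2_ WT replicate 3 (0.37 and 0.18) or cPLA_2_ KO replicate 3 (0.36 and 0.20), and *Cd74* with no filter. The part of these cells in the differences between genotypes was not tested.

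LPS gave the highest levels of most members. Against nonconfined cells, with both labels averaged, 8 of 10 rose and 2 fell, beside 37.2% and 34.3% of all genes, and 7 rose by more than 1, beside 29% that changed by that much in either direction. *Ifih1* rose 10.0-fold (log2 fold change 3.33 ± 0.038 (SE), adjusted p = 4.2e-25) and *Zbp1* 6.08-fold (log2 fold change 2.60 ± 0.034 (SE), adjusted p = 4e-24). The smallest increase was that of *Cgas* (log2 fold change 0.67 ± 0.081 (SE), adjusted p = 1.8e-07), which was not past the test when libraries were scaled to the same total (0.18, adjusted p = 0.056). The 2 adaptors fell, *Mavs* by 0.85 (adjusted p = 4.4e-09) and *Sting1* by 0.38 (adjusted p = 5.7e-08) on the log2 scale. The median was 2.09 over the members and 0.02 over all genes. Genes of DCs and other cells also differed after LPS. Of the DC list, 4 of 6 genes were called higher (*Itgax*, *H2-Ab1*, *Cd74* and *Zbtb46*) and 1 lower, of the plasmacytoid DC list 2 of 5 higher and 1 lower, of the macrophage list 2 of 6 higher (*Adgre1* and *Fcgr1*) and 4 lower, and of the neutrophil list 4 of 8 higher (*Camp*, *Ngp*, *S100a8* and *S100a9*) and 4 lower. Called lower were also 5 of 5 eosinophil, 4 of 5 mast cell and basophil and 2 of 2 T and NK cell genes tested. These calls were against the mean of both nonconfined genotypes, which differed. The eosinophil sums after LPS (25438 to 43869) lay below those of nonconfined cPLA_2_ KO (70386 to 75606) but on both sides of those of nonconfined cPLA_2_ WT libraries (30754 to 31049). The mast cell and basophil sums likewise lay below those of nonconfined cPLA_2_ KO libraries and overlapped those of nonconfined cPLA_2_ WT. With the same total per library, the direction turned for *Itgax* (-0.21 in place of 0.29), *H2-Ab1* (-0.34 in place of 0.16), *Cd74* (-0.20 in place of 0.30), *Fcgr1* (-0.06 in place of 0.44), *Camp* (-0.12 in place of 0.37), *Ngp* (-0.20 in place of 0.30), *S100a8* (-0.42 in place of 0.08) and *S100a9* (-0.34 in place of 0.16). *H2-Ab1* did not pass without LPS cPLA_2_ WT replicate 1 (0.11) or LPS cPLA_2_ KO replicate 2 (0.12), nor *Fcer1a* of the mast cell and basophil list (-0.58) without nonconfined cPLA_2_ WT replicate 1 (-0.48), nonconfined cPLA_2_ KO replicate 1 (-0.52), LPS cPLA_2_ WT replicate 2 (-0.51) or LPS cPLA_2_ KO replicate 3 (-0.41). The call of *S100a8* was lost when any of nonconfined cPLA_2_ WT replicates 1 to 3, nonconfined cPLA_2_ KO replicate 2, LPS cPLA_2_ WT replicates 1 and 2 and LPS cPLA_2_ KO replicates 2 and 3 was left out (0.05 to 0.09). The part of these cells in the changes with LPS was not tested.

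Between the 2 genotype labels of LPS-treated cells, limma called 0 members higher and 0 lower, and 0% of all genes in either direction or past a log2 fold change of 1. At an unadjusted p under 0.05, 0 members and 890 genes of 17875 passed, and edgeR and DESeq2 on recovered reads each called 0 genes after adjustment (821 and 831 before it), whereas limma with no filter on low values called 1 gene, none of the members. The 2 widest 95% intervals here were those of *Cgas* (-0.28 to 0.20) and *Mavs* (-0.24 to 0.24). Because the labels of these libraries are in doubt, nothing about cPLA_2_ after LPS can be read from this comparison.

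Confined cells were also set against LPS-treated cells. In confined cPLA_2_ WT cells, 8 members were lower and 1 (*Mavs*) was higher than after LPS, beside 29.8% and 24.5% of all genes, and 4 differed by more than 1 (*Rigi*, *Ifih1*, *Dhx58* and *Zbp1*), beside 14.8%. *Cgas* was not called (-0.15, 95% interval -0.36 to 0.06, adjusted p = 0.21), and *Zbp1* differed most (log2 fold change -2.05 ± 0.041 (SE), adjusted p = 2e-19). In confined cPLA_2_ KO cells, 9 were lower and 1 (*Mavs*) was higher, beside 32.5% and 30.3%, and 8 differed by more than 1, beside 23.6%. *Ifih1* was 18.3-fold lower (log2 fold change -4.20 ± 0.046 (SE), adjusted p = 3.5e-25). The medians were -0.93 and -3.07 over the members, and -0.014 and 0.027 over all genes. For *Sting1*, the lower values in confined cPLA_2_ WT (-0.29, adjusted p = 8.2e-05) and confined cPLA_2_ KO cells (-0.33, adjusted p = 9.9e-06) turned direction with the same total per library (0.0028 and 0.11). The DC, plasmacytoid DC, eosinophil, macrophage, and mast cell and basophil sums were lower in every confined than in every LPS-treated library. The neutrophil sums were lower in every confined cPLA_2_ WT and higher in every confined cPLA_2_ KO library. Single genes went the other way. *Cd209a* of the DC and *Siglecf* of the eosinophil list were called higher in confined cells of each genotype, and *Ear6* of the eosinophil list in cPLA_2_ KO. *Camp* of the neutrophil list was called lower in confined cPLA_2_ KO cells. In cPLA_2_ KO the calls of *Siglecf* and *Camp* were lost under 1 or more alternatives. The part of these cells was not tested. The comparisons with nonconfined and with LPS-treated cells share libraries, so their values are not independent of each other.

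**Figure D3:**
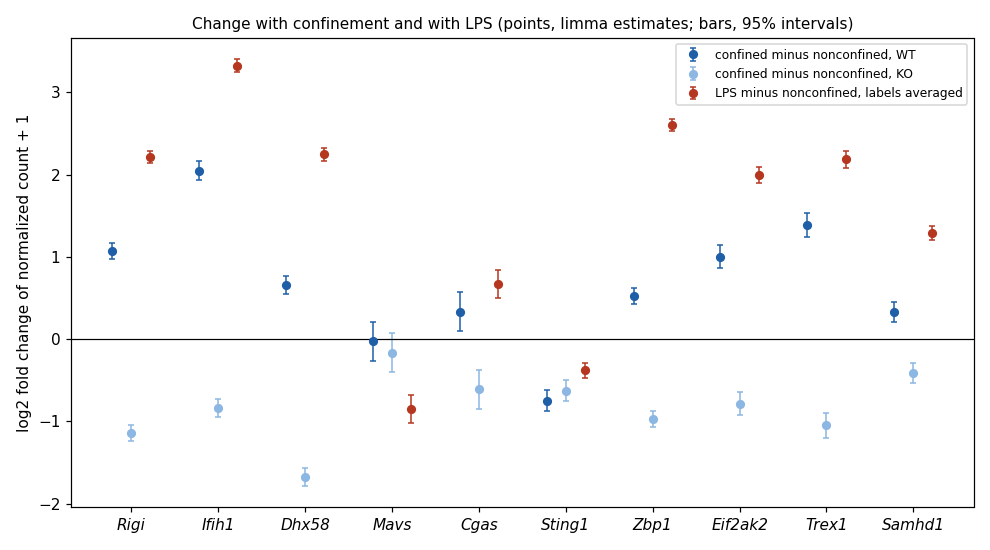
Log2 fold change of normalized count + 1 for the 10 genes with confinement in cPLA_2_ WT (dark blue) and cPLA_2_ KO cells (light blue) and with LPS (red, labels averaged). Points are limma estimates and bars 95% intervals; for *Ifih1* the 3 values are 2.05, -0.84 and 3.33.

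The 10 genes lie on 6 chromosomes, in coordinates of mm39 as the table gives them: *Rigi* at chr4:40203777-40239827, *Ifih1* at chr2:62423633-62476600, *Dhx58* at chr11:100585530-100595097, *Mavs* at chr2:131075965-131089945 and *Cgas* at chr9:78337800-78350520. *Sting1* is at chr18:35866731-35873607, *Zbp1* at chr2:173048405-173060715, *Eif2ak2* at chr17:79159979-79190001, *Trex1* at chr9:108883399-108888798 and *Samhd1* at chr2:156939453-156977086. All are annotated as protein-coding, with between 3 and 18 merged exons.

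Levels of different genes were compared as normalized counts per kilobase of merged exons of the GENCODE annotation of GRCm39. These lengths are not those of the annotation on which the authors counted, and the ends of 4 genes differ by 14599 bases in all for *Zbp1*, 7318 for *Mavs*, 3606 for *Trex1* and 2088 for *Ifih1*, against at most 180 for the others. The places of these 4 in the order, and of others relative to them, are uncertain. In nonconfined cPLA_2_ WT cells, *Trex1* was highest with 2877 ± 188 per kb (mean ± SD, n = 3). *Sting1* followed with 1024 ± 18.8, *Dhx58* with 864 ± 43.4, *Samhd1* with 759 ± 5.72 and *Zbp1* with 596 ± 7.15 per kb. *Rigi* had 327 ± 4.7, *Ifih1* 217 ± 6.47 and *Eif2ak2* 154 ± 5.98 per kb. *Mavs* (67.5 ± 3.84) and *Cgas* (65.6 ± 12.4) were lowest, and these 2 overlapped. In confined cells *Ifih1* had 900.2 ± 41.7 per kb in cPLA_2_ WT and 116 ± 8.96 in cPLA_2_ KO, and *Sting1* had 611 ± 30.3 in cPLA_2_ WT. In confined cPLA_2_ KO cells *Samhd1* (594 ± 44.1) and *Sting1* (592 ± 19.8) had overlapping levels, as did *Zbp1* and *Dhx58* there and *Ifih1* and *Zbp1* in confined cPLA_2_ WT cells. After LPS, with the cPLA_2_ WT label, the order began with *Trex1* (12877 ± 1349), *Dhx58* (4099.7 ± 126) and *Zbp1* (3504 ± 188) and ended with *Cgas* (92.3 ± 4.35) and *Mavs* (36.8 ± 7.28).

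Other genes of the pathway were taken from 8 fixed lists. Of the calls with confinement in these lists, 12 of 74 in cPLA_2_ WT and 9 of 62 in cPLA_2_ KO cells were lost or turned direction under 1 or more of the alternatives. Among all genes tested, 28.2% rose and 28.4% fell in cPLA_2_ WT and 22.8% rose and 23.4% fell in cPLA_2_ KO cells, and the counts of each list stand beside these shares. The shares of the lists nearest to them in cPLA_2_ WT cells were the 29.4% of the DNA sensing list that rose and the 28.6% of the STING list that fell, and in cPLA_2_ KO cells the 21.4% of the STING list that fell and the 27.3% of the list of downstream adaptors, kinases and factors that fell. Of 14 regulators of RIG-I-like receptors, 8 rose and 5 fell with confinement in cPLA_2_ WT cells (median log2 fold change 0.12), and 1 rose (*Trim25*) and 5 fell (*Prkra*, *Ddx60*, *Znfx1*, *Rnf125*, *G3bp1*) in cPLA_2_ KO cells (median -0.06). With the same total per library, *Ddx3x* (-0.09 in place of 0.13) and *Pcbp2* (-0.13 in place of 0.10), counted among the 8 that rose, were called lower in confined cPLA_2_ WT cells. *Rnf125*, a ubiquitin ligase that targets RIG-I, stood at 506, 558 and 531 in nonconfined cPLA_2_ WT, 2819.7, 2622 and 2544 in confined cPLA_2_ WT, 764, 828 and 785 in nonconfined cPLA_2_ KO and 713, 669 and 639 in confined cPLA_2_ KO libraries. It rose with confinement in cPLA_2_ WT cells (log2 fold change 2.32 ± 0.088 (SE), adjusted p = 2.1e-15), and was lower after LPS than in nonconfined cells (-0.89, adjusted p = 2.5e-11). In cPLA_2_ KO cells its call (-0.23, adjusted p = 0.034) was lost with no filter on low values (adjusted p = 0.051) and without nonconfined replicate 2 (-0.20, adjusted p = 0.1) or 3 (-0.24, adjusted p = 0.065) or confined replicate 2 (-0.23, adjusted p = 0.075) or 3 (-0.20, adjusted p = 0.12). The helicase gene *Ddx60* rose in cPLA_2_ WT (1.62) and fell in cPLA_2_ KO cells (-1.33), with a difference of -2.95 (adjusted p = 5e-14). *Trim25*, which ubiquitinates RIG-I, rose in both genotypes (1.40 and 0.42), by less in cPLA_2_ KO (difference -0.98, adjusted p = 2.7e-10). *Znfx1* changed by 0.99 in cPLA_2_ WT and -0.90 in cPLA_2_ KO cells.

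Downstream of both routes, 9 of 11 adaptors, kinases and interferon regulatory factors rose and 2 fell (*Irf3* and *Tbkbp1*) in cPLA_2_ WT cells (median 0.65), and in cPLA_2_ KO cells 5 rose (*Tbk1*, *Traf3*, *Traf6*, *Tank*, *Tax1bp1*) and 3 fell (*Ikbke*, *Irf3*, *Irf7*, median 0.14). *Ikbke*, which encodes IKKε, stood at 2466, 2054 and 2229.7 in nonconfined cPLA_2_ WT, 7521, 7502 and 7443 in confined cPLA_2_ WT and 1931, 1916 and 1957 in confined cPLA_2_ KO libraries. It changed by 1.74 with confinement in cPLA_2_ WT and by -0.16 in cPLA_2_ KO cells, and these changes differed (-1.90, adjusted p = 2.3e-13). The *Ikbke* call in cPLA_2_ KO cells was lost without nonconfined replicate 2 (-0.16, adjusted p = 0.08) or 3 (-0.13, adjusted p = 0.15), without confined replicate 1 (-0.16, adjusted p = 0.082), 2 (-0.15, adjusted p = 0.097) or 3 (-0.17, adjusted p = 0.07), with the replicate number as a block (adjusted p = 0.059), with no filter on low values and with edgeR. The *Irf3* call in cPLA_2_ WT cells was lost with no filter, with TMM scaling and without nonconfined replicate 1 (-0.18, adjusted p = 0.072) or 3 (-0.13, adjusted p = 0.17) or confined replicate 1 (-0.18, adjusted p = 0.069) or 2 (-0.12, adjusted p = 0.21). *Irf7*, an interferon-induced factor that amplifies interferon transcription, read 3798, 3627 and 3565 in nonconfined cPLA_2_ WT and 9564, 8741 and 9009 in confined cPLA_2_ WT libraries, against 4342, 4056 and 4463 and 1719, 1745 and 1803 in cPLA_2_ KO. The changes of *Irf7* were 1.31 and -1.29, which differed (adjusted p = 9.1e-18). *Tax1bp1*, a brake on MAVS signalling, rose in both genotypes (1.32 in cPLA_2_ WT and 0.57 in cPLA_2_ KO).

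Among the interferon genes reported here, 5 of 7 were tested, and all 5 rose with confinement in cPLA_2_ WT cells (median 1.08). Of these, *Ifnb1* passed the filter on low values only through confined cPLA_2_ WT and LPS-treated libraries, either of which was enough. A gene this low in nonconfined cells is tested only if it is higher elsewhere, so its place in this count follows in part from the filter. With confinement of cPLA_2_ KO cells, *Ifnb1*, *Ifnar1* rose and *Stat2*, *Irf9* fell (median 0.00). *Ifnb1*, the interferon that these routes produce, read 3.05, 5.12 and 5.9 normalized counts in nonconfined cPLA_2_ WT, 0, 1.86 and 3.88 in nonconfined cPLA_2_ KO, 105, 92.6 and 103 in confined cPLA_2_ WT and 11.9, 6.4 and 6.38 in confined cPLA_2_ KO libraries. After LPS it read 167, 155 and 146 under the cPLA_2_ WT label and 144, 134 and 134 under the cPLA_2_ KO label. Confined cPLA_2_ WT libraries were well above both nonconfined groups and below the LPS-treated libraries, and confined cPLA_2_ KO libraries were a few counts above the nonconfined ones. Confinement changed *Ifnb1* by 4.19 ± 0.42 in cPLA_2_ WT and by 1.88 ± 0.42 in cPLA_2_ KO cells on the log2(normalized count + 1) scale, which understates changes from such low counts (difference -2.30, adjusted p = 0.0059). *Ifna4* and *Ifna2* were at or near 0 and were not tested. *Stat2*, which carries the interferon signal to the nucleus, changed by 1.26 in cPLA_2_ WT and by -0.49 in cPLA_2_ KO cells (difference -1.76, adjusted p = 3.5e-15). The receptor genes *Ifnar1* and *Ifnar2* changed by 1.08 and 0.61 in cPLA_2_ WT cells.

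The lists around DNA sensing were mixed. Of 17 tested genes of DNA sensing and cGAMP handling, 5 rose (*Lrrc8a*, *Lrrc8d*, *Abcc1*, *Aim2*, *Ifi204*) and 10 fell in cPLA_2_ WT cells (median -0.24), and 5 rose (*Enpp1*, *Lrrc8a*, *Lrrc8d*, *Abcc1*, *Aim2*) and 11 fell in cPLA_2_ KO cells (median -0.23). Past a log2 fold change of 1 in cPLA_2_ WT cells were 3 of the genes that rose and 3 of those that fell. *Xrcc6*, which fell in both genotypes, stood at 936, 1082 and 981 in nonconfined and 371, 373 and 306 in confined cPLA_2_ WT libraries. The *Lrrc8a* call in cPLA_2_ KO cells was lost without confined replicate 1 (0.20, adjusted p = 0.072). *Ifi204*, a DNA-binding protein of the interferon-inducible p200 family, stood at 1132, 1079.5 and 1071 in nonconfined cPLA_2_ WT, 5286, 5274 and 5342 in confined cPLA_2_ WT and 831, 753 and 711 in confined cPLA_2_ KO libraries (2.28 and -0.64, difference -2.92, adjusted p = 1.7e-17). *Abcc1*, an exporter of cGAMP, rose in both genotypes (1.93 and 1.90) with no difference past the test (-0.03 ± 0.13 SE, adjusted p = 0.9). *Lrrc8d*, a subunit of volume-regulated channels, rose in cPLA_2_ WT by 1.54 and in cPLA_2_ KO by 0.88, and *Xrcc5* fell by 0.54 in cPLA_2_ WT cells.

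Of 14 genes of STING trafficking and turnover, 6 rose and 4 fell (*Stim1*, *Sec24c*, *Rnf5*, *Rnf26*) in cPLA_2_ WT cells (median 0.09), and 6 rose and 3 fell (*Rnf5*, *Rnf26*, *Trim32*) in cPLA_2_ KO cells (median 0.13). *Stim1* did not pass in cPLA_2_ WT cells without nonconfined replicate 1 (-0.16, adjusted p = 0.056). *Rhbdf2*, which protects STING from degradation, rose in cPLA_2_ WT (log2 fold change 1.38 ± 0.062 (SE), adjusted p = 4.1e-14) and by less in cPLA_2_ KO cells (0.54, difference -0.84). *Rnf5* and *Rnf26*, ubiquitin ligases that act on STING, fell in cPLA_2_ WT cells by 0.55 and 0.72 and in cPLA_2_ KO cells by 0.50 and 0.33 on the log2 scale. *Surf4*, a retrieval receptor of the early secretory route, had a log2 fold change of 0.36 in cPLA_2_ WT and, not past the test, 0.01 in cPLA_2_ KO cells.

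Among 12 nucleases and editing enzymes, 6 rose and 4 fell (*Rnaseh2a*, *Rnaseh2b*, *Rnaseh2c*, *Skiv2l*) in cPLA_2_ WT cells (median 0.14), and 1 rose (*Dnase2a*) and 9 fell in cPLA_2_ KO cells (median -0.35). *Isg20*, an interferon-induced RNA exonuclease, rose from 1164, 1129.8 and 1158 to 3656, 3194 and 3424 normalized counts in cPLA_2_ WT libraries and fell from 1054, 975 and 1024 to 436, 425 and 375 in cPLA_2_ KO libraries (difference -2.87, adjusted p = 8.9e-13). The RNA-editing enzyme *Adar* changed by 0.45 and -0.45 and the mitochondrial exonuclease *Pnpt1* by 0.54 and -0.37 in cPLA_2_ WT and cPLA_2_ KO cells. The RNase H2 subunits *Rnaseh2b* and *Rnaseh2c* fell in cPLA_2_ WT by 0.65 and 0.64 and in cPLA_2_ KO by 0.23 and 0.40 on the log2 scale, but *Rnaseh2b* did not pass in cPLA_2_ KO cells without nonconfined replicate 1 (-0.18, adjusted p = 0.14) or 3 (-0.25, adjusted p = 0.052) or confined replicate 1 (-0.18, adjusted p = 0.14) or 3 (-0.24, adjusted p = 0.06).

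Around PKR, 3 of 9 genes rose (*Ppp1r15a*, *Ppp1r15b*, *Nck1*) and 2 fell (*Eif2ak3*, *Dnajc3*) in cPLA_2_ WT cells (median -0.04), and 4 rose (*Eif2ak4*, *Ppp1r15a*, *Ppp1r15b*, *Nck1*) and 1 fell (*Dnajc3*) in cPLA_2_ KO cells (median 0.21). *Nck1* did not pass in cPLA_2_ KO cells without confined replicate 3 (0.19, adjusted p = 0.062). *Ppp1r15a*, which encodes GADD34, a phosphatase subunit that reverses the action of PKR on eIF2α, stood at 1644, 1417 and 1570.3 in nonconfined cPLA_2_ WT, 6859, 6221 and 6718 in confined cPLA_2_ WT, 1728, 1654 and 1653 in nonconfined cPLA_2_ KO and 3109.8, 3068 and 2882 in confined cPLA_2_ KO libraries. It rose in both genotypes, by 2.10 and 0.85, and the increases differed (-1.25, adjusted p = 2.5e-11). Its constitutive relative *Ppp1r15b* rose by 0.94 and 0.41, and the kinase gene *Eif2ak3* fell by 0.66 in cPLA_2_ WT cells.

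In the ZBP1 and RIPK cell death list, 4 of 7 genes rose (*Ripk3*, *Mlkl*, *Casp8*, *Cflar*) and 1 fell (*Fadd*) in cPLA_2_ WT cells (median 0.45), and 4 rose (*Ripk1*, *Ripk3*, *Casp8*, *Cflar*) and 0 fell in cPLA_2_ KO cells (median 0.24). *Cflar*, an inhibitor of caspase-8, rose from 488, 496 and 423 to 2289, 2326 and 2256 in cPLA_2_ WT and from 338, 441 and 431 to 783, 680.3 and 750.0 in cPLA_2_ KO libraries (difference -1.41, adjusted p = 1e-08). *Ripk3*, the kinase that ZBP1 engages, rose by 0.76 in cPLA_2_ WT and 0.79 in cPLA_2_ KO cells with no difference past the test (adjusted p = 0.92). *Mlkl*, the pore-forming protein downstream of it, had a log2 fold change of 0.76 in cPLA_2_ WT and, not past the test, 0.07 in cPLA_2_ KO cells (difference -0.69, adjusted p = 5.9e-05).

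The pattern over the 18 libraries was also set against that of other genes by the Pearson correlation of log2(normalized count + 1), over 11158 genes whose mean reached 100 normalized counts. This is a description of libraries that fall into 6 conditions, so a high r says that genes share the order of conditions. Among the closest to *Rigi* were *Znfx1* and *Ifi47* (r of 0.9987 and 0.9987). The closest to *Ifih1* were *Ifi211*, *Isg15*, *Ifi204*, for *Dhx58* *Oasl2*, *Phf11b*, *Mndal*, and for *Zbp1* *Ube2l6*, *Lacc1*, *Pnp*. *Trex1* was closest to *Myd88*, *Slfn8*, *Ifit3*, *Samhd1* to *Mtss1*, *Samd9l*, *Lgals9* and *Eif2ak2* to *Ifi209*, *Parp14*, *Znfx1*. *Cgas* was closest to *Mx1*, *Gvin2*, *Gvin1* (r between 0.9600 and 0.9612). The adaptors had other neighbours, *Sting1* being closest to *Kmo*, *Scn4b*, *Fbxo7* (r up to 0.9787) and *Mavs* to *Mfsd13a*, a row without a symbol and *Ephx1* (r up to 0.9794).

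RefSeq promoters (GRCm38.p6, 250 bases before to 50 after the start of transcription) were held for 7 of 10 members, in 8 entries. They were searched on both strands for the core of the interferon-stimulated response element (GAAANNGAAA) and for a kB-type motif (GGGANNNNCC). Of 32851 promoters in the table, 3.44% held the former and 20.7% the latter. The response element core was found in the promoters of *Rigi*, *Ifih1* and *Eif2ak2*, once each, and the kB-type motif in those of *Cgas* and *Eif2ak2*, and neither was found in those of *Mavs*, *Samhd1* and both entries of *Trex1*. No match of one motif overlapped a match of the other. Of the 6 members with a promoter entry that rose with confinement in cPLA_2_ WT cells and fell in cPLA_2_ KO cells, 3 (*Rigi*, *Ifih1*, *Eif2ak2*) thus held the core and 3 (*Cgas*, *Samhd1*, *Trex1*) did not. The 3 promoters with the core are shown to place the matches in their sequence, and that of *Mavs*, which was not called with confinement, as 1 without either match. Capitals mark the matches, and positions count from 1 at the 5′ end. In *Rigi* the match spans bases 253 to 262 on the reverse strand, in *Ifih1* bases 283 to 292 and in *Eif2ak2* bases 269 to 278, the last with a kB-type match at bases 228 to 237. By exact match to GRCm39, the windows are chr4:40239776-40240075 (*Rigi*, minus strand), chr2:62476550-62476849 (*Ifih1*, minus strand), chr17:79189952-79190251 (*Eif2ak2*, minus strand) and chr2:131075733-131076032 (*Mavs*, plus strand). A match is a description of these letters and neither a binding site nor a cause.
Rigi: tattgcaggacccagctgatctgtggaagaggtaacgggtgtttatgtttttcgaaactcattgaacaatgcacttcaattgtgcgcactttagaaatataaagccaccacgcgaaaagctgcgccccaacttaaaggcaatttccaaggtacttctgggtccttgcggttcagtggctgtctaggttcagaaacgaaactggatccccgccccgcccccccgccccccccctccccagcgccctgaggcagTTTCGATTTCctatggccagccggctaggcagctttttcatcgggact
Ifih1: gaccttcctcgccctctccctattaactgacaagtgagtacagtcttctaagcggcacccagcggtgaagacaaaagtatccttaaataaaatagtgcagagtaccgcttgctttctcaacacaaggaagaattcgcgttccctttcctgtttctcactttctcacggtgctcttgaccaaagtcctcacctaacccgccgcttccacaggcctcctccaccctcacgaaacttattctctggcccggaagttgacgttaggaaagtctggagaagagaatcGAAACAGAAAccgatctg
Eif2ak2: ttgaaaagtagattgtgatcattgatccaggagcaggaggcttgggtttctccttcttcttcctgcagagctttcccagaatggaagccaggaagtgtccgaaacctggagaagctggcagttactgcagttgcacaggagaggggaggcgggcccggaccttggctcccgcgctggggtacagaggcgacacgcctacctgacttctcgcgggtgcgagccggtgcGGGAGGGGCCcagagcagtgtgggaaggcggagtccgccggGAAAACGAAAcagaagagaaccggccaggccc
Mavs: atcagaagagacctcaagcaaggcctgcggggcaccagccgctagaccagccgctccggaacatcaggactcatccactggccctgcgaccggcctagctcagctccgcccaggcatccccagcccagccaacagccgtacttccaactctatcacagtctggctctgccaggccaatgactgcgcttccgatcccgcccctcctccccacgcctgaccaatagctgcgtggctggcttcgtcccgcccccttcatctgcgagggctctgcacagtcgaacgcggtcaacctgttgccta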

How the data were processed

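Polyadenylated RNA was made into strand-specific libraries with 2 kits, and the sources do not say which library used which. Per the labels and the study's methods, the authors mapped reads with STAR (2.7.5a in the submitters' processing notes) to mm39, counted genes on the Mouse FAST DB annotation (featureCounts 1.5.0 in the notes) and used DESeq2 on genes. The deposited signal values, called normalized counts here, were whole reads divided by 1 factor per library. The labels' protocol text mentions LPS for all samples, and titles and treatment entries were followed instead.

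A single linear model with a mean for each condition was fitted to log2(normalized count + 1) of all 18 libraries, using limma 3.58.1 (R 4.3.3) with moderated variances that follow a trend. Tested were genes that reached 10 normalized counts in 3 or more libraries, and adjustment (Benjamini-Hochberg) ran over all of these in each comparison. All 10 members passed this filter. A call needed an adjusted p under 0.05. All adjusted p-values are from limma unless another tool is named. Whole reads were recovered by dividing each library's values by the value of 1 read, and edgeR 4.0.16 (quasi-likelihood) and DESeq2 1.42.0 were run on them as alternatives, with 10161 and 10267 genes called for confinement in cPLA_2_ WT cells against 10113 with limma. Other alternatives were pseudocounts of 0.5 and 5, no filter or a filter of 100 normalized counts, other scalings, fits of the compared conditions alone, a replicate block, other thresholds and each library left out in turn. Scripts were tested on simulated data. The variances in limma hold both counting error and the spread between libraries, which together limit the precision.

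The members and lists were chosen with earlier results of these data known. From each list, up to 3 genes with the largest change in cPLA_2_ WT cells and up to 3 with the largest difference between genotypes were named, among called genes whose mean reached 100 normalized counts. *Ifnb1* and *Ifnar2*, and genes named because a count was 5 or fewer or a call was lost, and genes of other cells, were named after their values were seen. Some items of the lists and of the ranking by likeness are not reported here. Protein sequences were not used here. Figures were drawn with matplotlib 3.10.9.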

Additional observations from a re-analysis of the deposited data

Results flagged for a closer look

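The changes with confinement in cPLA_2_ KO and cPLA_2_ WT cells differed, by a limma test of the difference itself, for 8 of the 10 sensing genes. On the log2 scale the change in cPLA_2_ KO minus that in cPLA_2_ WT was -2.89 for *Ifih1*, -2.44 for *Trex1*, -2.33 for *Dhx58*, -2.21 for *Rigi*, -1.79 for *Eif2ak2*, -1.50 for *Zbp1*, -0.95 for *Cgas* and -0.75 for *Samhd1*. Each of the 8 was higher in all 3 confined cPLA_2_ WT than in all 3 confined cPLA_2_ KO libraries. The share of all genes that separated in this way was not counted, but 20.6% of them were called lower in confined cPLA_2_ KO cells. The 8 were picked by a test on these same libraries, so this separation adds no further support.

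Among the other pathway genes named, the difference was negative for *Ddx60* (-2.95), *Ifi204* (-2.92), *Isg20* (-2.87), *Irf7* (-2.60), *Rnf125* (-2.56), *Ifnb1* (-2.30) and *Ikbke* (-1.90). It was also below 0 for *Znfx1* (-1.88), *Stat2* (-1.76), *Cflar* (-1.41), *Irf9* (-1.35), *Ppp1r15a* (-1.25), *Trim25* (-0.98) and *Pnpt1* (-0.92), and for *Adar* (-0.91), *Rhbdf2* (-0.84), *Tax1bp1* (-0.75), *Mlkl* (-0.69), *Lrrc8d* (-0.66), *Ifnar2* (-0.61), *Ifnar1* (-0.56), *Ppp1r15b* (-0.53) and *Surf4* (-0.35). It was above 0 for *Eif2ak3* (0.72), *Xrcc5* (0.65), *Rnaseh2b* (0.42), *Rnf26* (0.39) and *Fadd* (0.28). Most of these genes were named for a large change in cPLA_2_ WT cells or a large difference, and their directions do not stand for the lists as a whole. Of all 89 genes of the 8 lists tested, the difference was called below 0 for 37 and above 0 for 14, beside 15.6% and 10.2% of all genes, and 13 of these 51 calls were lost under 1 or more alternatives. The median difference was above 0 for 4 of the 8 lists (0.06 for DNA sensing and cGAMP handling, 0.06 for STING trafficking and turnover, 0.09 for PKR and eIF2α phosphorylation, 0.02 for ZBP1 and RIPK cell death). The difference of *Xrcc5* (adjusted p = 0.028) did not pass without nonconfined cPLA_2_ WT replicate 2 (0.48, adjusted p = 0.099), nonconfined cPLA_2_ KO replicate 2 (0.61, adjusted p = 0.057), confined cPLA_2_ WT replicate 3 (0.62, adjusted p = 0.059) or confined cPLA_2_ KO replicate 1 (0.57, adjusted p = 0.077). That of *Fadd* (adjusted p = 0.038) did not pass with the replicate number as a block (adjusted p = 0.05), with TMM scaling (adjusted p = 0.075) or with no filter (adjusted p = 0.056). Nor did *Fadd* pass without nonconfined cPLA_2_ WT replicate 1, 2 or 3, nonconfined cPLA_2_ KO replicate 2, confined cPLA_2_ WT replicate 1 or 3, or confined cPLA_2_ KO replicate 1 or 2, each left out in turn (0.24 to 0.29, adjusted p from 0.054 to 0.09). Among genes of other cells, the difference was above 0 for 7 of 8 neutrophil genes, for *Ear6*, 1 of 5 genes of the eosinophil list, and for *Mcpt8*, 1 of 5 tested of the mast cell and basophil list, beside 10.2% of all genes. It was below 0, as for the sensing genes, for *Zbtb46* (-0.42), *H2-Ab1* (-0.36) and *Cd74* (-0.26) of 6 DC genes, for *Tcf4*, 1 of 5 tested of the plasmacytoid DC list, and for *Fcgr1*, 1 of 6 tested of the macrophage list, beside 15.6% of all genes. With the same total per library none of the 3 DC genes passed (-0.23, -0.17 and -0.07). *H2-Ab1* also did not without nonconfined cPLA_2_ WT replicate 2 (-0.34), nonconfined cPLA_2_ KO replicate 3 (-0.33) or confined cPLA_2_ WT replicate 1 (-0.33), nor *Cd74* without nonconfined cPLA_2_ WT replicate 2 (-0.24). *Ltf* of the neutrophil list did not pass without confined cPLA_2_ WT replicate 2 (0.47, adjusted p = 0.058) or confined cPLA_2_ KO replicate 1 (0.46, adjusted p = 0.06), and *Ear6* (adjusted p = 0.05) did not when any 1 of the 12 nonconfined and confined libraries was left out (0.66 to 0.74). The part of these cells was not tested.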

How the results depend on the processing

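Of 1700 values of the members under the alternatives, 1675 counted as kept, 18 lost the call, 5 gained it and 2 turned direction. For the other named genes these were 6304 of 6454, 71, 69 and 10. A value counted as kept if it stayed on its side of the threshold. A turn of direction was counted only where the main or the alternative value was called, so kept values that were not called may differ in direction. The number of members called fell with an added log2 fold change threshold of 1 to 4 for confinement in cPLA_2_ WT, 3 in cPLA_2_ KO and 4 for confined cPLA_2_ WT against LPS. With that threshold the number also fell, to 6 for the difference, 7 for genotype in confined cells, 7 for LPS and 8 for confined cPLA_2_ KO against LPS. For genotype in nonconfined cells it was 2, but 0 with that threshold, 0 under a rule of 1.5-fold and a p of 0.05 before adjustment, 0 with no filter and 1 in a fit of these conditions alone, and 3 with the same total per library and 3 with DESeq2; the cause was not tested. Leaving out 1 library gave 8 to 9 for confinement in cPLA_2_ WT, 9 for confinement in cPLA_2_ KO, 8 for their difference, 8 for genotype in confined cells, 0 to 2 for genotype in nonconfined cells, 10 for LPS, 0 for genotype label in LPS, 9 for confined cPLA_2_ WT against LPS, 10 for confined cPLA_2_ KO against LPS. For genotype in nonconfined cells the count was 0 without cPLA_2_ WT replicate 2 or cPLA_2_ KO replicate 1 or 3, and 1 without cPLA_2_ WT replicate 1 or 3. Treating the 6 LPS libraries as 1 group, chosen after seeing the data, left the counts of the 8 comparisons other than that of genotype label in LPS as they were.

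Scaling each library to the same total moved the median of all genes, to -0.23 for confinement in cPLA_2_ WT, 0.24 for the difference, 0.19 for genotype in confined cells, -0.46 for LPS, 0.27 for confined cPLA_2_ WT and 0.46 for confined cPLA_2_ KO against LPS, where the deposited scaling leaves it within 0.1 of 0. The share of higher genes among all calls was then 32.7% against 49.8%, 70.7% against 39.5%, 69.7% against 47.7%, 26.4% against 52%, 75% against 45.2% and 77.2% against 48.2% in the same order, and 42% against 53.8% for genotype in nonconfined cells. With it, log2 fold changes turned direction for confined cPLA_2_ WT against LPS in *Sting1* (0.0028 in place of -0.29), *Abcc1* (0.046 in place of -0.24), *Rhbdf2* (0.10 in place of -0.18), *Rnf5* (0.11 in place of -0.17) and *Ifnar1* (0.10 in place of -0.19). For confined cPLA_2_ KO against LPS they did in *Sting1* (0.11 in place of -0.33), *Pla2g4a* (0.28 in place of -0.16), *Tax1bp1* (0.17 in place of -0.28), *Abcc1* (0.13 in place of -0.31), *Rnf5* (0.39 in place of -0.05), *Rnaseh2b* (0.43 in place of -0.01) and *Fadd* (0.36 in place of -0.08). Among other genes of the pathway lists that were called, it turned *Ddx3x* (-0.09 in place of 0.13), *Pcbp2* (-0.13 in place of 0.10), *Yipf5* (-0.07 in place of 0.15) and *Rnaset2a* (-0.09 in place of 0.13) for confinement in cPLA_2_ WT, none for confinement in cPLA_2_ KO, and *Ddx3x* for the difference (0.0047 in place of -0.18).

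Whether the replicate numbers pair the libraries was not settled. In no comparison were all residual correlations of same-numbered libraries above 0.1 (range -0.14 to 0.34 over all such pairs). Between confined cPLA_2_ WT and confined cPLA_2_ KO libraries they were 0.34, 0.21 and 0.04 for replicates 1 to 3. Libraries of different number there had values from -0.31 to 0.17. With the replicate number as a block, the members called were 9 for confinement in cPLA_2_ WT, 9 for confinement in cPLA_2_ KO, 8 for their difference, 8 for genotype in confined cells, 2 for genotype in nonconfined cells, 10 for LPS, 0 for genotype label in LPS, 9 for confined cPLA_2_ WT against LPS, 10 for confined cPLA_2_ KO against LPS, as without it.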
